A study of Mus musculus with 6 samples.

Results

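Oxidative phosphorylation is carried out by 5 protein complexes of the inner mitochondrial membrane, and the genes described here are the nuclear genes that encode their subunits together with the electron carrier cytochrome c. Members were taken by gene symbol alone, as symbols starting with Nduf and a letter a, b, c, s or v with a number, Cox4 to Cox8, Uqcr or Atp5, the genes Sdha to Sdhd, and Cycs. The rule found 85 of 23238 gene symbols. They comprise 35 genes of complex I, 4 of complex II, 8 of complex III, 20 of complex IV, 17 with an Atp5 symbol, counted here under complex V, and Cycs. Ndufa4 and its paralog Ndufa4l2 were placed with complex IV, because Ndufa4, despite its symbol, is a complex IV subunit. Atp5s and Atp5sl fit the rule by their older symbols but are not subunits of ATP synthase under current naming. The rule itself uses no measured value, but it was chosen with earlier results of these data known.

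Complex I (NADH dehydrogenase) and complex II (succinate dehydrogenase) pass electrons to ubiquinone, complex III passes them to cytochrome c, and complex IV (cytochrome c oxidase) passes them to oxygen. Complexes I, III and IV pump protons, and complex V (ATP synthase) uses the gradient to make ATP. In the lung, alveolar type II cells, which make surfactant, are rich in mitochondria, and several complex IV subunits have isoforms bound to particular tissues, among them a lung isoform of subunit 4.

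RNA sequencing was made on whole lung tissue of wild-type mice in 2 groups, PM given i.t., the treatment as the labels write it, and the PBS vehicle given by the same route. The series title calls the exposure chronic. Dose, duration, age, sex and the meaning of PM were not in the sources used here. Each group has 3 deposited count tables, but the tables of PBS replicates 1 and 2 are identical in all 23282 entries and were counted once, which leaves 3 PM and 2 PBS libraries. The labels do not state whether each sample is a different mouse, and the p-values therefore reflect the spread among these libraries alone, which may be technical. Total counts ran from 7410200 to 8827202 a library. The ribosomal transcript Rn45s took 15.7% to 25.4% of counts and haemoglobin genes 0.632% to 5.41%. The deposited counts hold 0 symbols starting with mt-, the prefix of mitochondrially encoded genes, so subunits encoded there were not analysed here. Because whole tissue was sequenced, fewer cells of a type and less RNA per cell cannot be told apart.

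Subunit genes differed little between PM and PBS lungs, and no member passed the test. With edgeR's quasi-likelihood test and Benjamini-Hochberg adjustment below 0.05 over 14057 genes, 0 of 83 tested members were called, where 0.228% of all genes were. DESeq2 called 0 members and 2.72% of all genes, and limma-voom, which called fewer genes in all than edgeR, called 0 members. At an unadjusted p below 0.05 in edgeR, 6 members were higher in PM, set beside 7.26% of all genes, and 1 was lower, set beside 6.05%. The 6 were Sdhd, Ndufa8, Cox7b, Cox5b, Cox4i1 and Atp5g2, and the lower gene was Ndufa4l2. The smallest adjusted p of a member in edgeR was 0.128, for Sdhd. Cox7b2 had 3, 0 and 5 counts in PM libraries and 0 in both PBS libraries, and Cox8c had 1 count in all, so neither was tested.

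Members varied narrowly between the libraries. The 95% interval of the log2 fold, PM over PBS, lay within -1 and 1, a 2-fold difference either way, for 79 of 83 members, against 67.7% of all tested genes. Members are well expressed, which narrows such intervals, and among genes with a mean of at least 20 CPM (CPM stands for counts scaled to a fixed library total after TMM, the trimmed mean of M values) the share was 93.3%, against 77 of 78 members at that level. Log2 folds of members ran from -0.55 to 0.57. Their median was 0.08, beside 0.01 over all tested genes and -0.02 over genes of at least 20 CPM. From the 10th to the 90th percentile the members spanned -0.12 to 0.27, and genes of at least 20 CPM spanned -0.33 to 0.32. A fold beyond 0.5 in size was seen for 2 members, Sdhd and Ndufa4l2, which is 2.41% of those tested, against 7.96% of genes of at least 20 CPM. The ratio of the highest to the lowest of the 5 libraries had a median of 1.27 over members and 1.35 over genes of at least 20 CPM. It passed 2 for 3 members, Cox6a2 at 2.40, Cox7a1 at 2.66 and Atp5s at 5.94. No test of these differences between sets was made.

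**Figure D1:**
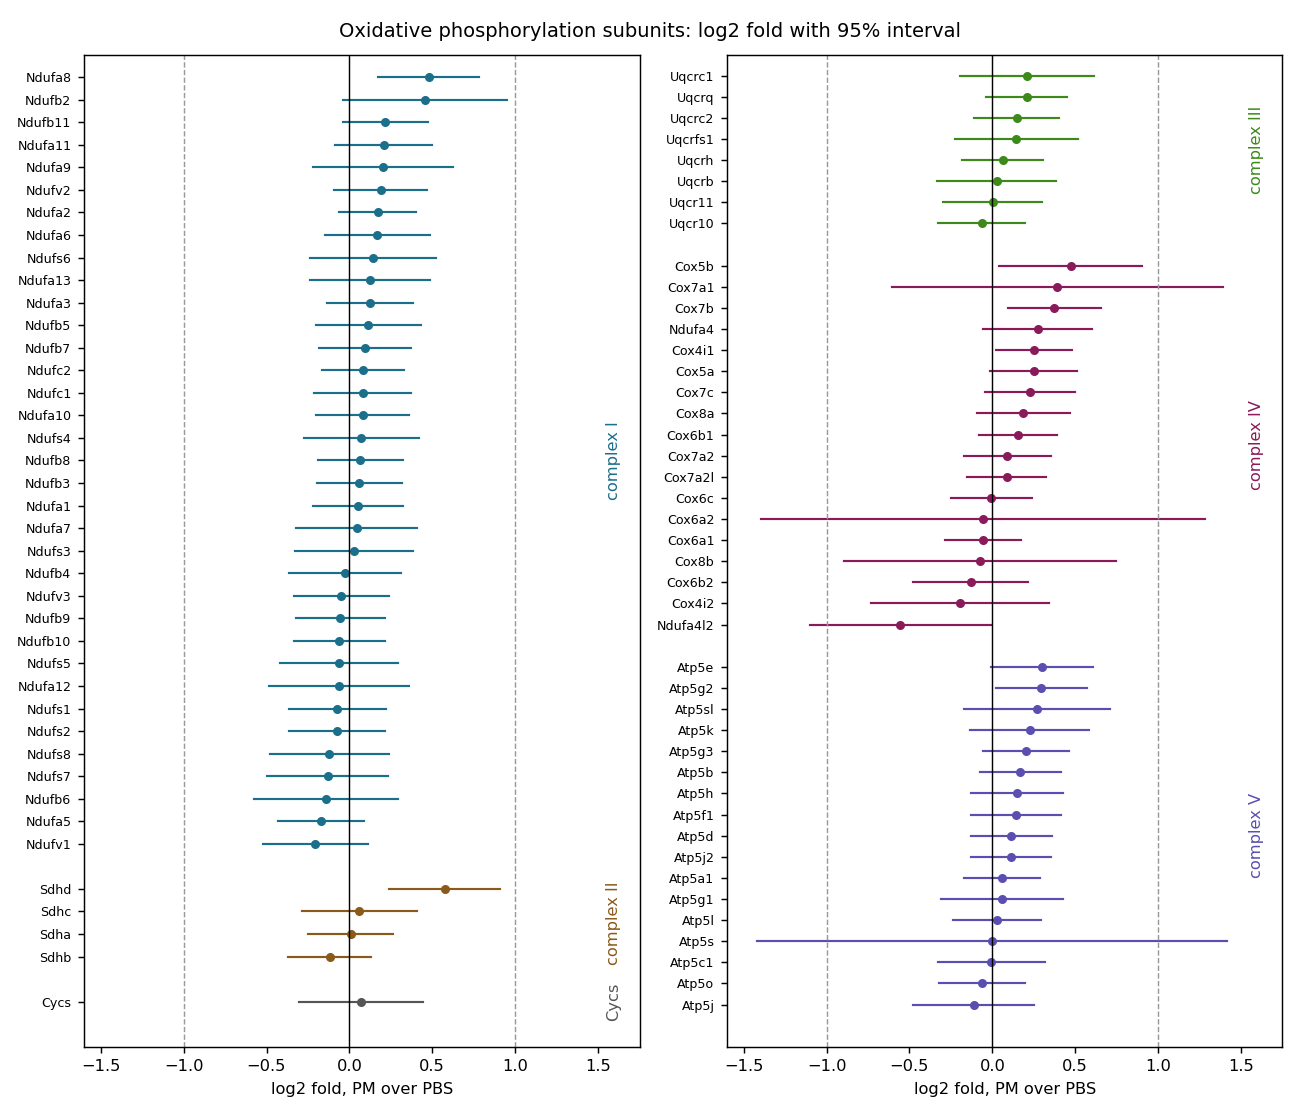
Log2 fold of PM over PBS with its 95% interval for each of the 83 tested subunit genes, by complex, from edgeR. Points gather near 0, with Sdhd at 0.57 and Ndufa4l2 at -0.55 as the ends, and the widest intervals belong to Atp5s and Cox6a2.

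**Figure D2:**
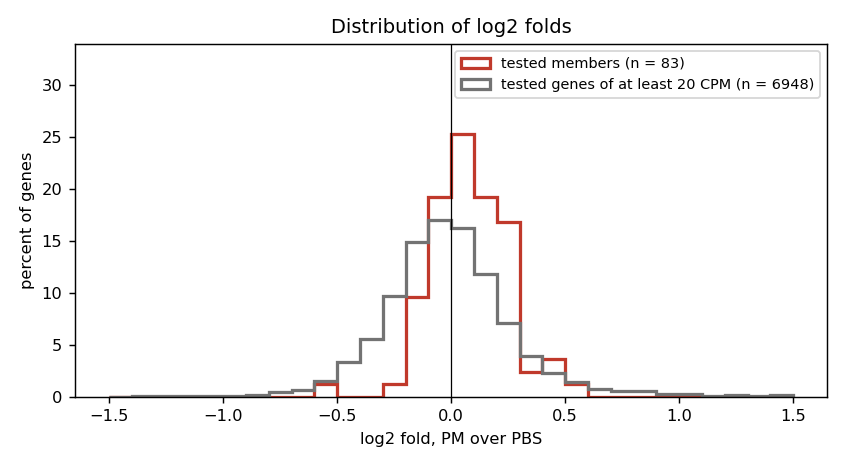
Share of genes, in percent, by log2 fold of PM over PBS for tested members and for tested genes with a mean of at least 20 CPM, with folds beyond 1.5 in size not drawn. The members sit in a narrower band whose median is 0.08, against -0.02 for the genes of at least 20 CPM.

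Small differences above 0 outnumbered those below. The log2 fold was positive for 57 members (68.7%) and negative for 26. It was positive for 51.1% of all tested genes and 46.2% of genes of at least 20 CPM. All 3 PM libraries lay above both PBS libraries for 23 of 83 members, beside 15.5% of all tested genes, and below both for 4 of 83, beside 16.1%. Among genes of at least 20 CPM the shares were 14.3% above and 21.0% below, and among members at that level 28.2% and 3.85%. By complex the counts above and below were 4 and 2 of 35 for complex I, 1 and 1 of 4 for complex II, 2 and 0 of 8 for complex III, 8 and 1 of 18 for complex IV, and 8 and 0 of 17 for complex V.

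Summed over tested members, CPM was 7285, 7615 and 7608 in PM libraries, against 7001 and 6993 in PBS libraries. PM averaged 7503 ± 189 (SD, n = 3) and PBS 6997 ± 5.78 (SD, n = 2), a ratio of 1.072. The groups did not overlap on this scale. As a share of all counts they did, with members taking 0.709%, 0.703% and 0.815% in PM libraries and 0.685% and 0.739% in PBS libraries. With Rn45s and haemoglobin counts left out, the shares were 0.950%, 0.962% and 0.973% in PM and 0.896% and 0.901% in PBS, again apart. The ratio of sums by complex was 1.05 for complex I, 1.04 for II, 1.06 for III, 1.08 for IV and 1.10 for V. Complex V summed to 2093, 2246 and 2149 CPM in PM against 1975 and 1957 CPM in PBS. Complex IV summed to 1647, 1666 and 1774 CPM in PM against 1567 and 1571 CPM in PBS. Complex I summed to 2475, 2601 and 2615 CPM in PM against 2417 and 2462 CPM in PBS, and complex III to 754, 778 and 768 CPM in PM against 745 and 696 CPM in PBS. In these 4 complexes every PM library stood above both PBS libraries. Complex II overlapped between groups, at 282, 283 and 270 CPM in PM and 263 and 274 CPM in PBS.

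**Figure D3:**
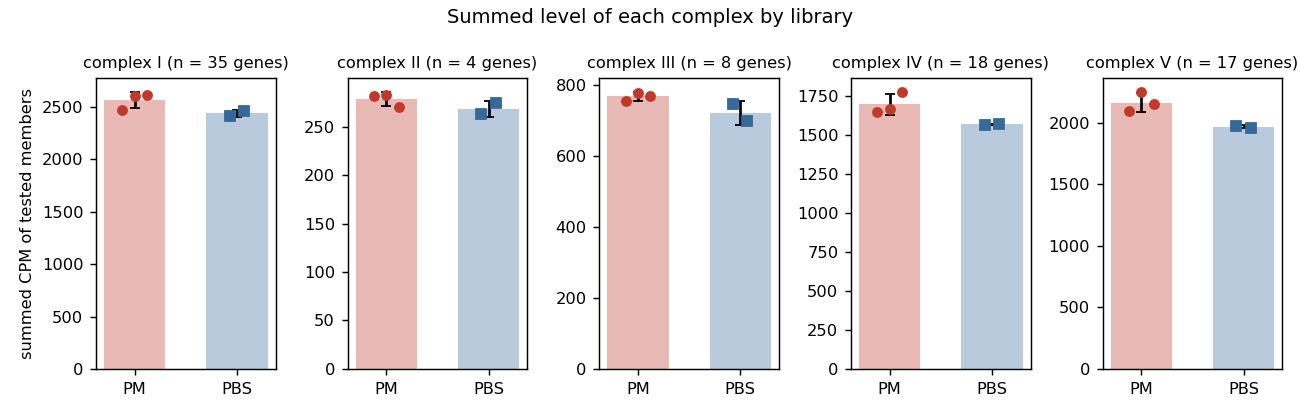
Summed CPM of the tested members of each complex, from 0, with 1 point a library, PM left of PBS. Complex V lies between 2093 and 2246 CPM in PM and between 1957 and 1975 CPM in PBS, and complex II overlaps.

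Markers of lung cell types differed between the same libraries. Type I alveolar markers summed to 4299, 4178 and 4682 CPM in PM against 5572 and 5596 CPM in PBS, with 5 of 6 markers below PBS in every PM library. Endothelial markers summed to 1604, 1362 and 1568 CPM in PM against 1763 and 1887 CPM in PBS, with 4 of 6 below. Alveolar macrophage markers summed to 954, 1363 and 759 CPM in PM against 130 and 328 CPM in PBS, with 4 of 7 above. Chil3 was the largest part of the PM sums, at 591, 1014 and 453 CPM in PM and 18.2 and 127 CPM in PBS. Marco, Siglecf and Fabp1 overlapped between groups, and the log2 fold of Fabp1 was -0.60. Ciliated cell markers summed to 306, 353 and 394 CPM in PM and 329 and 302 CPM in PBS, and 3 of 6 lay above PBS in every PM library, with a median log2 fold of 0.61. White fat markers summed to 100.2, 30.8 and 75.9 CPM in PM against 22.8 and 18.8 CPM in PBS, with 3 of 5 tested markers above. Type II alveolar markers overlapped, at 23918, 20830 and 22656 CPM in PM and 22852 and 18600 CPM in PBS. Over all tested genes, 15.5% lay above PBS in every PM library and 16.1% below. In edgeR 0 genes of these 6 lists were called. At an unadjusted p below 0.05, 3 type I and 4 endothelial markers stood lower and 2 macrophage markers and 1 type II marker higher, as were 4 ciliated cell and 4 white fat markers. DESeq2 called Ager, Chil3, Itgax, Dnah5, Rsph1 and Adipoq. The part of cell makeup in the subunit levels was not tested.

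The promoters of 4 members are printed, because they belong to the member with the smallest p (Sdhd), to the next by p (Ndufa8), to the carrier between complexes III and IV (Cycs) and to a muscle isoform (Cox8b). Each runs from 250 bases before to 50 after the annotated start, in RefSeq's GRCm38.p6 sequence, which is the assembly called mm10, read 5′ to 3′ on the gene's strand. Capitals mark matches, on either strand, to the motifs searched. NRF1, nuclear respiratory factor 1, was searched as GCGCANGCG. GABP, an ETS factor, was searched as CCGGAAG. ERR, the estrogen-related receptors, was searched as TCAAGGTCA, and YY1 was searched as AAGATGGCG. The box that lends its name to TATA promoters was searched as TATAAA. Sdhd at chr9:50603800-50604099, minus strand, holds an NRF1 match at -79, a GABP match at -46 and an ERR match at 37, counted from the start. Ndufa8 at chr2:36049289-36049588, minus strand, holds NRF1 matches at -29 and -9. Cycs at chr6:50566520-50566819, minus strand, holds 1 at -61. Cox8b at chr7:140900397-140900696, minus strand, holds a TATA match at 5.
Sdhd: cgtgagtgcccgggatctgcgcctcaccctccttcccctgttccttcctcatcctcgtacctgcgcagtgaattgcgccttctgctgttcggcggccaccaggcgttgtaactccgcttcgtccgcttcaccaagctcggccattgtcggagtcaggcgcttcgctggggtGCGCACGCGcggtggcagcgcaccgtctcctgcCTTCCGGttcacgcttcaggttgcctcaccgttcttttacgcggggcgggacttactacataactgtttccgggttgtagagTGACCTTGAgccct
Ndufa8: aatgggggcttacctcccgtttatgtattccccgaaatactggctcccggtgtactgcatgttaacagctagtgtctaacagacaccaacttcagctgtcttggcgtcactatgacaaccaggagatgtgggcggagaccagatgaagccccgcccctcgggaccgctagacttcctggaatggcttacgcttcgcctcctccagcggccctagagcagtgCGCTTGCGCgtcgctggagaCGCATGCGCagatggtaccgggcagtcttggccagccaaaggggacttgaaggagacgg
Cycs: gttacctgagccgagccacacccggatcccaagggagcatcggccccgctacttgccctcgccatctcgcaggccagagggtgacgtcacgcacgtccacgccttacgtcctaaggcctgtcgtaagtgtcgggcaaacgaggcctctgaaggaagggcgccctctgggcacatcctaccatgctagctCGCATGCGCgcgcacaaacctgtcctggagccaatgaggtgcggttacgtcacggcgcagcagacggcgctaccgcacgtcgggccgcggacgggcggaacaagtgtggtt
Cox8b: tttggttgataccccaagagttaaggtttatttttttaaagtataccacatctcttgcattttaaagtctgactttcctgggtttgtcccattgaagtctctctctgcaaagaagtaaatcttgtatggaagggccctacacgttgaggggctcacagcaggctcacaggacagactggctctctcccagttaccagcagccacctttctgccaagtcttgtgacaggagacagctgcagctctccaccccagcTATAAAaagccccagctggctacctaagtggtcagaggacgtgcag

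NRF1 and GABP are regulators known to act on many nuclear genes for mitochondrial proteins. Of 85 members, 70 had a promoter window. NRF1 matched in 21 of them (30.0%), against 14.1% of the 11102 tested genes with a window and 7.03% of all 27025 genes with one. GABP matched in 16 (22.9%), against 18.6% and 9.93%. YY1 matched in 8 (11.4%), against 3.29% and 1.64%. ERR matched in 2, Sdhd and Atp5g3 (2.86%), against 0.333% and 0.466%, and TATA in 7 (10%), against 9.29% and 15.7%. By complex, NRF1 matched in 8 of 31 complex I windows, 1 of 14 for complex IV and 7 of 16 for complex V. A match describes the letters and not binding, and the levels of the regulators are given with the other lists.

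In complex I, which takes electrons from NADH, differences were small and mixed, with a median log2 fold of 0.07 over 35 genes and none over 0.5 in size. Ndufa8, an accessory subunit (chr2:36036324-36049338), stood highest. It had 59.7, 62.2 and 72.9 CPM in PM against 47.4 and 45.8 CPM in PBS, so the groups did not overlap. The log2 fold of Ndufa8 was 0.48 ± 0.14 (SE), and edgeR gave an adjusted p of 0.153. Ndufb2, an accessory subunit, had 24.9, 19.3 and 26.4 CPM in PM against 13.7 and 20.7 CPM in PBS, and the groups overlapped. Its log2 fold was 0.46 ± 0.23 (SE) and ran from 0.19 without PBS replicate 1 to 0.78 without PBS replicate 3.

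The core subunit Ndufv1, which binds NADH and flavin, had 59.6, 47.9 and 57.1 CPM in PM against 57.9 and 68.7 CPM in PBS. Its log2 fold was -0.20 ± 0.14 (SE), and PM replicate 1 lay above PBS replicate 1. It ran from -0.32 without PBS replicate 1 to -0.08 without PBS replicate 3. Ndufa5, an accessory subunit of the matrix arm, had 75.6, 82.8 and 83.6 CPM in PM against 95.3 and 86.4 CPM in PBS. It was among the 4 members with every PM library below PBS, with a log2 fold of -0.17 ± 0.12 (SE), or -0.10 without PBS replicate 1. Ndufs1, the largest core iron-sulfur subunit, was another, by a narrow gap, at 45.0, 45.3 and 45.0 CPM in PM against 49.6 and 45.3 CPM in PBS. Ndufb6, an accessory subunit, had 24.8, 34.5 and 22.8 CPM in PM against 29.1 and 31.2 CPM in PBS, with PM libraries on both sides, and its log2 fold of -0.14 ran from -0.34 without PM replicate 2 to -0.03 without PM replicate 3.

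In complex II, the only complex that also serves the tricarboxylic acid cycle, the 4 genes did not share a direction. Sdhd, a membrane anchor (chr9:50596340-50603849), had 46.9, 45.3 and 39.2 CPM in PM against 30.1 and 28.6 CPM in PBS. Every PM library lay clear of PBS. The means were 43.8 ± 4.04 CPM in PM (SD, n = 3) and 29.4 ± 1.05 CPM in PBS (SD, n = 2). The log2 fold of 0.57 ± 0.15 (SE) had an unadjusted p of 0.003 and an adjusted p of 0.128 in edgeR. Without PM replicate 3 the adjusted p in edgeR was 0.0483, and without each other library it stayed above 0.05. Sdhb, the iron-sulfur subunit, had 83.2, 79.3 and 81.5 CPM in PM against 90.9 and 85.8 CPM in PBS, each PM library below PBS, with a log2 fold of -0.12 ± 0.11 (SE), or -0.08 without PBS replicate 1. Sdha, the flavin subunit, had 110.3, 103 and 105 CPM in PM and 98.7 and 112 CPM in PBS, and Sdhc, the other anchor, had 41.6, 55.3 and 45.0 CPM in PM and 43.0 and 47.7 CPM in PBS. The levels of both overlapped between groups. The anchor Sdhd and its partner Sdhc thus had log2 folds of 0.57 and 0.06 in the same libraries, a difference that was not tested.

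In complex III, which hands electrons to cytochrome c, 7 of 8 genes had a positive log2 fold and the median was 0.10. Uqcrq, a small subunit near the ubiquinone site, had 127, 127 and 133 CPM in PM against 117 and 107 CPM in PBS, with no overlap and a log2 fold of 0.21 ± 0.11 (SE). Uqcrc2, a core protein, had 100.4, 93.7 and 91.9 CPM in PM against 90.3 and 81.9 CPM in PBS, with a log2 fold of 0.15 ± 0.12 (SE). It ran from 0.08 without PBS replicate 3 to 0.22 without PBS replicate 1. Uqcrc2 shares exon bases with Pdzd9 on the opposite strand. Uqcrh, the hinge protein, overlapped between groups at 223, 251 and 218 CPM in PM and 219 and 223 CPM in PBS. Cytochrome c itself, Cycs, had 32.7, 41.6 and 31.0 CPM in PM and 34.5 and 32.4 CPM in PBS, with a log2 fold of 0.07 ± 0.17 (SE).

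In complex IV, the oxidase, 11 of 18 tested genes had a positive log2 fold and the median was 0.12, while the paralog Ndufa4l2 lay below PBS in every PM library. Cox7b, a small subunit (chrX:106015700-106022450), had 61.5, 69.4 and 67.7 CPM in PM against 52.0 and 50.01 CPM in PBS. PM exceeded PBS in every library, with a log2 fold of 0.37 ± 0.13 (SE) and an adjusted p of 0.220 in edgeR. Cox5b, a subunit facing the matrix, had 28.8, 22.5 and 31.7 CPM in PM against 18.4 and 21.5 CPM in PBS, and the log2 fold was 0.47 ± 0.20 (SE). The lowest PM library of Cox5b lay just above the highest PBS library. Cox4i1, the widespread form of subunit 4, varied little within groups, at 200.1, 203 and 201 CPM in PM against 167 and 171 CPM in PBS. The log2 fold of Cox4i1 was 0.25 ± 0.10 (SE), and edgeR gave an adjusted p of 0.324. Cox6b1 stood apart by less, at 159, 150.3 and 151 CPM in PM against 136 and 139 CPM in PBS. Cox6a1, Cox7a2 and Cox8a overlapped between groups, with log2 folds of -0.06, 0.09 and 0.19. Without PBS replicate 1 those of Cox7a2 and Cox8a were 0.02 and 0.07.

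Ndufa4, a subunit of complex IV, had 42.7, 50.7 and 53.0 CPM in PM against 42.3 and 38.3 CPM in PBS. Ndufa4l2, its paralog known as a target of hypoxia signalling, went the other way at 7.13, 8.03 and 8.07 CPM in PM against 10.9 and 11.9 CPM in PBS. Neither gene overlapped between groups. For Ndufa4 the gap was narrow, with 365 counts in both PM replicate 1 and PBS replicate 1. The log2 fold of Ndufa4l2 was -0.55 ± 0.25 (SE), with an adjusted p of 0.364 in edgeR, and that of Ndufa4 was 0.27 ± 0.15 (SE). Scaled by exon length, Ndufa4l2 stood at 21.1%, 19.95% and 19.2% of Ndufa4 in PM libraries and at 32.5% and 39.1% in PBS libraries. This ratio was a description with no test. Ndufa4l2 shares exon bases with Shmt2 on the opposite strand, and strand use in counting was not given.

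**Figure D4:**
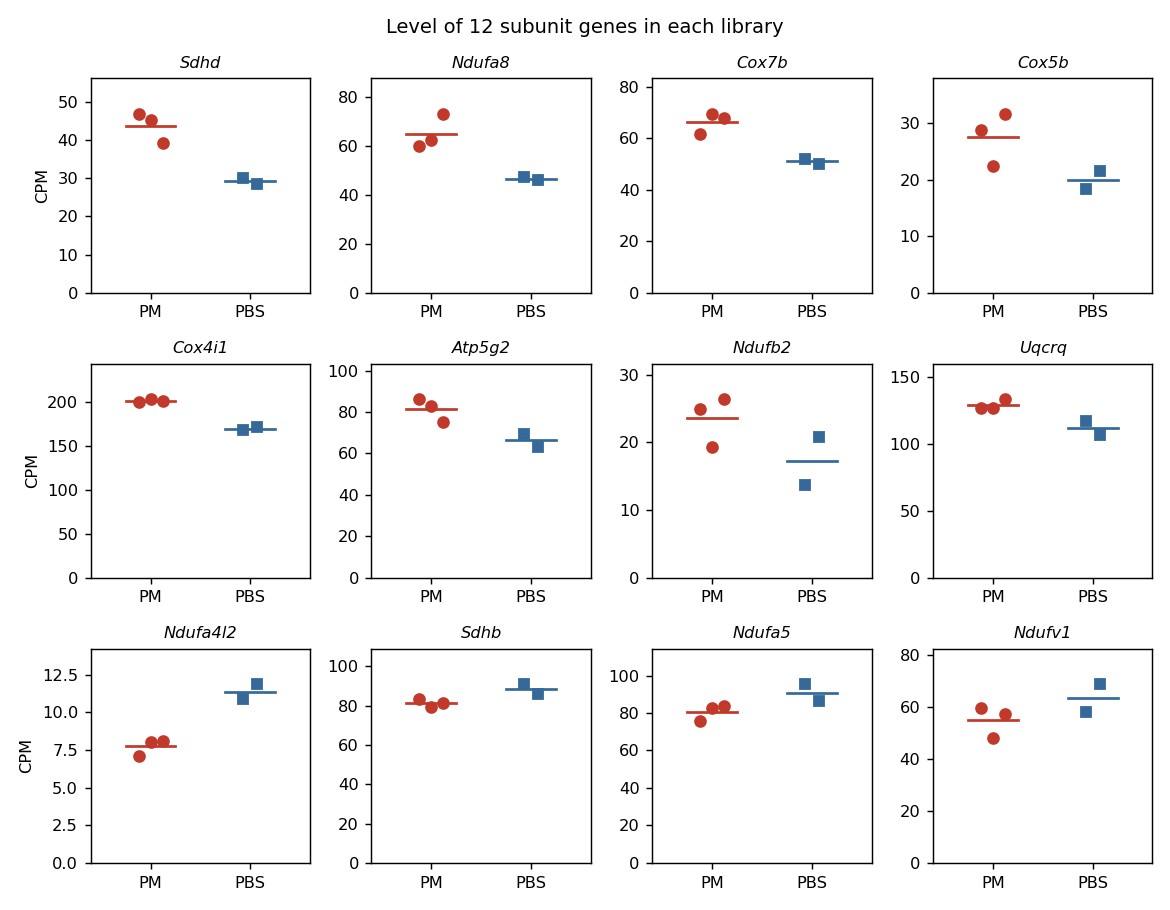
CPM of 12 subunit genes in each library, from 0, PM left of PBS, with 1 point a library and a bar at the group mean. Sdhd and Ndufa8 lie higher in every PM library and Ndufa4l2 lower, while Ndufv1 and Ndufb2 overlap.

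In each of the 6 isoform pairs, the form with fewer counts had a wider ratio of highest to lowest library than its partner, with no test. Low counts widen such ratios, and Cox7a1 had 17 to 45 counts a library against 1156 to 1400 for Cox7a2. For Cox8b and Cox8a the ratios were close, at 1.47 and 1.39. Cox4i2, the lung form of subunit 4, had 35.4, 31.7 and 18.8 CPM in PM against 31.4 and 34.2 CPM in PBS. PM replicate 3 alone stood low, and without it the log2 fold of -0.20 became 0.03. Scaled by exon length, Cox4i2 stood at 34.8%, 30.7% and 18.4% of Cox4i1 in PM and at 36.9% and 39.4% in PBS, apart between groups, with no test. The sum of pericyte and smooth muscle markers was also lowest in PM replicate 3, at 570, 594 and 460 CPM in PM and 535 and 495 CPM in PBS. Not every marker followed the sum. Acta2 was lowest in PBS replicate 3, at 135 CPM, and Notch3 and Cnn1 in PM replicate 2, at 10.9 and 12.6 CPM. In edgeR 0 of the 8 markers were called, and DESeq2 called Acta2. The unadjusted p was below 0.05 for 1 of them on the higher side and 1 on the lower. Their part in the Cox4i2 value was not tested. Cox6b2, the testis form, had 32.5, 34.8 and 30.8 CPM in PM and 39.1 and 32.5 CPM in PBS, while 4 testis markers summed to at most 0.717 CPM in any library, 2 of them at 0 throughout.

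Cox6a2, the form of subunit 6a found in heart and skeletal muscle, had 31.2, 48.9 and 74.9 CPM in PM and 70.2 and 36.9 CPM in PBS. Its libraries were spread across both groups, and the 95% interval of its log2 fold ran from -1.39 to 1.28. The 12 heart muscle markers summed to 182, 481 and 525 CPM in PM and 620 and 232 CPM in PBS, lowest in PM replicate 1 and PBS replicate 3 as Cox6a2 was. Not every heart marker followed the sum. Myl3 was highest in PBS replicate 3, at 5.06 CPM. Nppa was highest in PM replicate 2, at 9.17 CPM, and stood at 0.811 CPM in PBS replicate 1. The 8 skeletal muscle markers summed to 8.88, 17.1 and 14.1 CPM in PM and 20.2 and 9.14 CPM in PBS, lowest in PM replicate 1 and PBS replicate 3 too. Among the tested ones only Ckm followed the sum, lowest at 3.86 CPM in PM replicate 1 and 4.32 CPM in PBS replicate 3. Tnnt3 was highest in PM replicate 1, at 1.87 CPM, and Mylpf in PBS replicate 3, at 1.73 CPM. Tnni2 was lowest in PM replicate 3, at 1.26 CPM. Neither edgeR nor DESeq2 called any of the 12 heart or 4 tested skeletal muscle genes. The unadjusted p in edgeR was below 0.05 for 1 of them, Myl3, which stood lower. Among brown fat markers Ucp1, Elovl3 and Otop1 were at 0 in every library, where 3 counts, the limit that a count of 0 allows, would be 0.340 to 0.405 CPM by total counts. Cidea, also on that list and known in lipid droplets, had 2.92, 5.45 and 4.16 CPM in PM against 0.464 and 0.370 CPM in PBS, with a log2 fold of 3.27 ± 0.64 (SE) and an adjusted p of 0.0530 in edgeR, and it was called in DESeq2. Plin5, a lipid droplet protein, overlapped between groups with a log2 fold of 0.74. Cpt1b and Ppargc1a, the other tested genes of the brown fat list, overlapped as well, with log2 folds of -0.57 and 0.07. The part of heart tissue in the Cox6a2 level was not tested. Cox7a1, also a heart and muscle form, had 3.74, 5.59 and 5.17 CPM in PM and 5.21 and 2.10 CPM in PBS. Without PBS replicate 3 its log2 fold of 0.39 became -0.11. Cox8b, the heart and muscle form of subunit 8 in mice, had 4.09, 4.16 and 4.79 CPM in PM and 5.45 and 3.70 CPM in PBS. Scaled by exon length, Cox6a2 was 13.2% to 32.2% of Cox6a1 in PM and 15.1% to 29.8% in PBS, and Cox8b was 3.37% to 3.51% of Cox8a in PM and 3.06% to 5.32% in PBS.

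**Figure D5:**
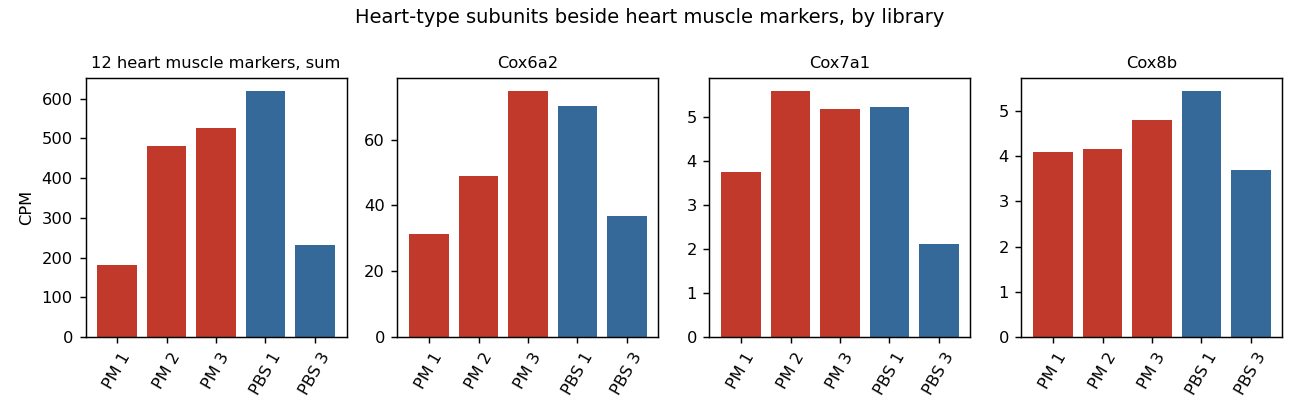
CPM of heart-type subunit genes and the summed CPM of 12 heart muscle markers in each library, as bars from 0, PM left of PBS. Cox6a2 and the marker sum are both low in PM replicate 1 and PBS replicate 3 and high in PM replicate 3 and PBS replicate 1.

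In complex V, the ATP synthase, 13 of 17 genes had a positive log2 fold, the median was 0.12 and no gene lay below PBS in every PM library. Atp5e, the epsilon subunit of the central stalk, had 201, 241 and 173 CPM in PM against 168 and 166 CPM in PBS, with a log2 fold of 0.30 ± 0.14 (SE) and an adjusted p of 0.392 in edgeR. The Atp5g genes encode the same mature subunit of the rotor ring. Atp5g2 had 86.1, 82.8 and 75.03 CPM in PM against 69.5 and 63.0 CPM in PBS, with a log2 fold of 0.30 ± 0.13 (SE). Atp5g3 had 416, 446 and 502 CPM in PM against 386 and 405 CPM in PBS, with a log2 fold of 0.20 ± 0.12 (SE). Atp5g1 had 26.5, 32.7 and 28.8 CPM in PM and 29.6 and 26.7 CPM in PBS, with a log2 fold of 0.06 ± 0.17 (SE). Atp5e, Atp5g2 and Atp5g3 lay above PBS in every PM library, and Atp5g1 overlapped. With a library left out, the log2 fold of Atp5e ran from 0.17 without PM replicate 2 to 0.41 without PM replicate 3, and that of Atp5g3 was 0.12 without PM replicate 3. Counts of the Atp5g genes are uncertain where reads were divided between these close copies. Atp5s, not a subunit, had 5.96, 1.003 and 3.78 CPM in PM and 4.40 and 2.84 CPM in PBS, and PM replicate 2 was its lowest library.

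Per kilobase of exon, subunits of 1 complex differed widely in level. Ndufa2 stood highest in complex I, at 413 ± 10.4 CPM per kilobase in PM (SD, n = 3) and 367 ± 14.1 in PBS (SD, n = 2), and Ndufb2 lowest at a mean of 3.73 over the 5 libraries. The highest over the lowest member mean was 106 in complex I, 12.6 in complex III, 42.3 in complex IV, 2.62 in complex II and, with Atp5s and Atp5sl left out, 33.6 in complex V. Exon length enters these ratios, with 572 bases for Ndufa2 and 5628 for Ndufb2, which had means of 226 and 21.0 CPM unscaled. A union of exons longer than the transcript lowers the scaled level, and the part of this was not tested. Cox6a1 led complex IV at 339 ± 10.6 CPM per kilobase in PM and 353 ± 8.37 in PBS. Atp5g3 led complex V at 208 ± 20.1 CPM per kilobase in PM and 181 ± 6.23 in PBS. Uqcrh led complex III at 187 ± 14.3 in PM and 179 ± 2.42 in PBS, and Sdhb led complex II at 36.3 ± 0.886 in PM and 39.5 ± 1.59 in PBS. Such levels rest on the union of annotated exons and are uncertain for genes with near-identical copies elsewhere in the genome: Gapdh, a gene with many such copies, had 17.6, 17.2 and 20.3 CPM in PM and 11.7 and 12.5 CPM in PBS. Of the members, 20 share exon bases with another counted gene on the opposite strand. Among them are Cox4i1 with Emc8, Cox6a2 with Itgad and Ndufb2 with Braf. Over the 5 libraries Braf had 4403 counts and Ndufb2 had 843.

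Genes that assemble or feed the chain gave 0 calls in edgeR in either direction, in every list tested, and DESeq2 called only Hk2 among them. The 14 tested complex I assembly factors had a median log2 fold of -0.06 and 0 genes at an unadjusted p below 0.05. The 20 complex IV assembly factors had a median of -0.11, with Cox11 at 0.54 and Cox15 at 0.43 at an unadjusted p below 0.05. The 11 factors of complexes II, III and V had a median of -0.05 and 0 such genes. Of 7 tested subunits and partners outside the rule, 5 lay above PBS in every PM library, beside 15.5% of all tested genes. Atpif1, the inhibitor of ATP synthase, was among the 5, at 136, 151 and 133 CPM in PM against 113 and 106 CPM in PBS. Another was 2010107E04Rik, at 72.1, 76.5 and 77.3 CPM in PM against 57.5 and 59.3 CPM in PBS. These 2 genes also had an unadjusted p below 0.05.

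The 18 genes of the tricarboxylic acid cycle and pyruvate dehydrogenase had a median log2 fold of -0.01 and 0 at an unadjusted p below 0.05. The 8 genes of ATP export and phosphate entry had a median of 0.03, with Slc25a5, an ATP carrier, at 0.41 and 1 gene at an unadjusted p below 0.05. The 77 mitochondrial ribosomal protein genes had a median of 0.04, with 9 above and 9 below PBS in every PM library and 1 higher at an unadjusted p below 0.05. Over all tested genes, 15.5% lay above and 16.1% below in this way, shares to set beside this list, the regulators and the glycolysis genes. Among 16 tested regulators the median was -0.07, with 2 above PBS in every PM library (Ppargc1b and Gabpb1) and 5 below (Nrf1, Tfam, Gabpb2, Pprc1 and Polrmt). Nrf1 had 21.2, 16.5 and 25.3 CPM in PM against 27.3 and 27.8 CPM in PBS, a log2 fold of -0.39 ± 0.20 (SE). Tfam, which drives transcription of mitochondrial DNA, stood at -0.22 and Ppargc1a, a coactivator of mitochondrial genes, at 0.07. Gabpb2, at -0.29, was the 1 regulator with an unadjusted p below 0.05. The 14 tested glycolysis genes had a median of 0.18, with 6 above PBS in every PM library and 5 higher at an unadjusted p below 0.05. Hk2, hexokinase 2, had 54.2, 54.6 and 62.2 CPM in PM against 38.7 and 34.2 CPM in PBS, with a log2 fold of 0.64 ± 0.14 (SE) and an adjusted p of 0.0746 in edgeR. The others were Aldoa at 0.31, Gapdh at 0.60, Pgk1 at 0.57 and Ldha at 0.34. Counts of Gapdh are uncertain, as given with the levels per length, and ran from 101 to 161 a library. Eno1, the listed glycolysis gene left untested, had 0 counts in every library.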

How the data were processed

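The authors deposited raw read counts per gene symbol for lung RNA libraries made with a kit for polyadenylated RNA, per the labels' protocols. TopHat, Cufflinks and mm10 are named per the submitters' processing notes; their versions and roles, the counting program, the annotation and strand use are, in the sources used here, not given. A blank entry was left out, and where 79 entries shared a symbol the one with most counts was kept, setting aside 44 with 0.0251% of counts. Counts were tested with edgeR 4.0.16 in R 4.3.3 (filterByExpr, TMM, robust quasi-likelihood, two-sided, no covariates), with DESeq2 1.42.0 and limma 3.58.1 as alternatives. An edgeR fit of this form was tried on simulated counts whose planted folds were larger than that of any member. The simulation did not cover DESeq2 or limma. CPM are TMM-scaled, and standard errors are taken from the fold and F. Members matched RefSeq by symbol (82) or synonym (3), and exon lengths (84) came from GENCODE M21. Genes named are the 2 smallest p of each complex, the 5 highest and 5 lowest folds of at least 1 CPM, isoform pairs and the top level per length of each complex; others, such as Sdha, Sdhc, Ndufs1 and Atp5s, were named after their values were seen. The members and lists were chosen with earlier results of these data known.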

Additional observations from a re-analysis of the deposited data

How the results depend on the processing

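Genes called higher and lower were 20 and 12 in edgeR. They were 165 and 110 with no filter beyond 1 count, 41 and 24 with at least 10 counts in every library, 267 and 115 in DESeq2, 12 and 5 in limma-voom, 346 and 289 with all 6 tables as deposited, and 126 and 80 at an adjusted p below 0.10. Lower calls were 5 without robust estimation. Leaving out each library in turn gave 1 to 261 higher and 0 to 166 lower, with the lone sample assumed to vary like the others where a PBS library was left out. Members called higher were 0, and 0 to 1 with a library left out: Sdhd, without PM replicate 3, at an adjusted p of 0.0483 in edgeR. With all 6 tables they were 3 (Sdhd, Ndufa8 and Cox7b), a fit that counts 1 library as 2. No member was called lower in any setting. With a library left out, the median log2 fold over members ran from 0.069 to 0.11, for complex I from 0.026 to 0.093, complex II from -0.043 to 0.12, and complex III from 0.044 to 0.17. Members with every PM library above PBS were then 27 to 34, beside 20.9% to 27.3% of all genes, and below 5 to 12, beside 21.2% to 28% of all genes; this was chosen after seeing the data. Log2 folds that changed sign with a library left out ran from -0.44 to 0.49 for Cox6a2, -0.26 to 0.011 for Cox6b2, -0.11 to 1.195 for Cox7a1, -0.33 to 0.23 for Cox8b, -0.068 to 0.15 for Cycs, -0.38 to 0.035 for Cox4i2, and -0.0017 to 0.10 for Uqcrh. Samples share only a replicate number: deviations correlated at -0.03 and 0.07 in the 2 pairs. With the replicate block, 221 genes were called higher and 132 lower, and 0 members; the complex I median was 0.038, Cycs stood at -0.069 and Uqcrh at -0.0028. The cause of these shifts was not tested. The number of PBS libraries, 2, limits the precision of every fold.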
